A study of Mus musculus with 32 samples.

Results

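Rex1-GFPd2 (RGd2) mouse embryonic stem cells (ESCs), which carry a destabilized GFP in the *Rex1* locus as a reporter of the naive state, were compared with *Rbpj*-KO cells made from them with CRISPR/Cas9, 16 h after withdrawal of 2i into N2B27 medium (N16h). 2i holds ESCs in the naive state with inhibitors of MEK and GSK3, and N2B27 is a serum-free medium without either. The groups compared held 6 of the 32 libraries of the series. There were 3 *Rbpj*-KO libraries, each from its own clonal line (c28, c33 and c36, replicates 19, 20 and 21). Of the 3 RGd2 libraries, replicates 22 and 23 came from the parental line and replicate 24 from a clonal line derived from it. The labels and the methods of the study differ on how many RGd2 libraries were sequenced at N16h, and the labels were followed, so the identity of the control libraries rests on the labels. All the cells, controls included, carry the reporter. Genes with a mean of at least 1 CPM (the count scaled to library size) in either group were called expressed, which gave 13392 of the 51826 genes in the table, and every one of them entered the test. RGd2 and *Rbpj*-KO cells in 2i, from the same lines, and RGd2 cells after 5 passages in 2i or 72 h after its withdrawal (N72h), with 3 libraries each, were used for reference.

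RBPJ is the DNA-binding protein through which NOTCH receptors act. Without signal it recruits corepressors to its target genes, and when a ligand releases the intracellular domain of NOTCH the same protein becomes part of an activating complex, so loss of RBPJ can raise a target by removing repression or lower it by removing activation. During exit from naive pluripotency, ESCs lose the naive transcription factors over about a day or more and gain a formative program from which lineages can later be specified. RNA was taken from bulk cultures, in which fewer cells of a type and less RNA per cell cannot be told apart.

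The *Rbpj*-KO lines were made with a pair of guide RNAs, shown because they define the targeted exons. Both match the coding sequence of *Rbpj* (ENSMUSG00000039191.12, chromosome 5) on the strand opposite to the gene in transcript Rbpj-201 (GRCm38, Gencode vM21): the former in exon 5 at chr5:53645980-53645999 and the latter in exon 7 at chr5:53649718-53649737. Each is written 5′ to 3′ in lower case, with the adjacent NGG motif (PAM), read from the transcript, in capitals.
Exon 5 guide: tgacctttatccgcttgctgAGG
Exon 7 guide: gcttgacagtctgcccgtaaTGG
The *Rbpj* count, scaled to the spike-in RNAs, was 12766, 12630 and 12327 in the RGd2 libraries and 2497, 2796 and 2797 in the *Rbpj*-KO libraries. The groups did not overlap, and the log2 fold change of *Rbpj* was −2.22, with a standard error of 0.21 (adjusted p = 1.23e-10). Adjusted p-values are from the quasi-likelihood test of edgeR, adjusted by Benjamini and Hochberg over all genes tested. The count covers all exons, so transcripts that keep the exons outside the targeted ones are still counted.

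Libraries at N16h held 18855525 to 46695457 counts on genes, and the share of counts on spike-ins was 1.37% ± 0.0422 in RGd2 libraries against 1.28% ± 0.0685 in the mutant (n = 3 and SD for both, exact permutation test, two-sided, p = 0.2, with 0.1 the smallest p that 3 against 3 allow). One library in each group stood apart. The summed normalised count of the Y-linked genes *Ddx3y*, *Eif2s3y*, *Uty* and *Kdm5d* was 13.3 in the clonal RGd2 replicate 24 and 4983 or more in the parental RGd2 libraries, with 2783 to 3506 in *Rbpj*-KO. The clonal line was as low in 2i (4.04, replicate 33). In *Rbpj*-KO replicate 21 (line c36), extraembryonic endoderm genes and some basement membrane genes were several-fold above the other 2 lines, and *Col4a1*, *Cubn*, *Pdgfra*, *Dab2* and *Gata4* were so in the 2i library of that line too (replicate 30). Median log2 ratios per autosome, over genes of at least 10 CPM, lay between 0.05 and 0.23 in the *Rbpj*-KO libraries and spread by at most 0.085 within any library, so no autosome stood apart. Values without these libraries are given beside the results that moved most when they were left out.

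Loss of RBPJ was accompanied by many more increases than decreases. In *Rbpj*-KO, 2570 genes were higher (19.2% of the expressed genes) and 530 lower (3.96%). The largest increases included *Prickle1*, which encodes a planar cell polarity protein, *Trh*, which encodes thyrotropin-releasing hormone, the chemokine scavenger *Ackr4*, the citrate transporter *Slc13a5*, the apoptosis factor *Xaf1*, and the NOTCH-responsive *Hey1* and *Nrarp*. The largest decreases included *Gadd45g*, a growth arrest and stress gene, *Hes3*, and members of the repeated *Zscan4*, *Usp17l* and *Xlr* families. By fitted fold change, 695 genes were higher and 270 lower by more than 1 on the log2 scale, 129 and 115 by more than 2, and 29 and 70 by more than 3, where some of the lower genes had no count in *Rbpj*-KO. The groups did not overlap for 3024 of the 3100 called genes and for 47.9% of all expressed genes. The median log2 fold change of the expressed genes was 0.15. With TMM normalization of the gene counts, which sets this median near 0 (a shift of −0.14), 2027 genes passed as higher and 1436 as lower, and increases made up 58.5% of the calls, against 82.9% with the spike-ins.

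**Figure D1:**
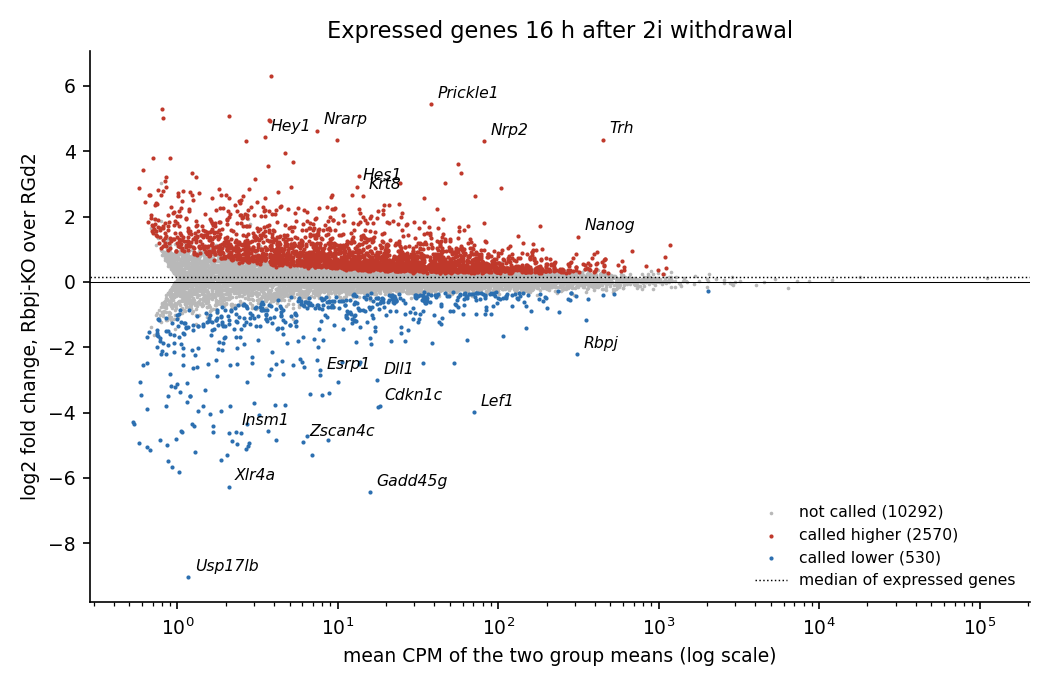
Log2 fold change of *Rbpj*-KO over RGd2 at N16h against the mean CPM of the groups (log axis), 1 point per expressed gene. Red points are the 2570 genes called higher and blue points the 530 called lower, and the dotted line marks the median of the expressed genes at 0.15. The blue points reach farther from 0 than the red, down to *Usp17lb*, which had no count in any *Rbpj*-KO library.

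*Prickle1* (ENSMUSG00000036158.12) had normalised counts of 43.6, 47.5 and 43.0 in RGd2 and 1876, 1856 and 2152 in *Rbpj*-KO (log2 fold change 5.44, standard error 0.20, adjusted p = 4.36e-23). The values within each group were close. The 10 largest increases and decreases were chosen among genes whose groups did not overlap, so the separation of the genes in this paragraph follows from the choice. *Trh* went from 1222, 1188 and 863 to 22789, 21345 and 23132 (log2 fold change 4.36, standard error 0.20, adjusted p = 7.93e-20), which made it one of the more abundant messages in the mutant at a mean of 616 FPKM against 32.2 in RGd2. *Nrp2*, which encodes a semaphorin and VEGF coreceptor, went from 242, 225 and 149 to 4236, 3892 and 4144 (log2 fold change 4.30, standard error 0.17, adjusted p = 2.62e-22). *Ackr4* was near absent in RGd2 (5.18, 2.61 and 1.02) and present in all the mutant libraries (122, 97.0 and 104), and *Slc13a5* (means of 6.01 ± 0.801 and 192 ± 63.5) and *Xaf1* (2.96, 5.75 and 11.3 against 175, 172 and 231) showed the same separation. The uncharacterized *1700108F19Rik*, *1700016D06Rik* and *Gm31562* completed the 10 largest increases. *Gadd45g* fell from 870, 833 and 595 to 9.92, 6.83 and 9.09 (log2 fold change −6.44, standard error 0.36, adjusted p = 4.18e-17), and no *Rbpj*-KO library came near an RGd2 library.

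Genes of the NOTCH pathway changed in both directions. Among NOTCH ligands and receptors, 4 of 8 expressed members were higher and 2 lower, and among canonical NOTCH targets 7 of 11 were higher and 2 lower (7 and 0 without *Rbpj*-KO replicate 21), at medians of 0.50 and 0.96 on the log2 scale. Over all expressed genes, 19.2% were higher and 3.96% lower, at a median of 0.15. *Hes1*, a basic helix-loop-helix repressor and the best known NOTCH target, had normalised counts of 78.4, 70.0 and 94.1 in RGd2 and 625, 590 and 588 in *Rbpj*-KO (log2 fold change 2.91, standard error 0.16, adjusted p = 2.37e-17). The related repressor *Hey1* went from 8.87, 6.79 and 9.21 to 167, 172 and 188 (log2 fold change 4.42, standard error 0.26, adjusted p = 1.11e-16), and *Nrarp*, which encodes a feedback inhibitor of NOTCH, from 12.6, 14.1 and 19.4 to 388, 322 and 409 (log2 fold change 4.63, standard error 0.23, adjusted p = 1.69e-18). All 3 genes separated the genotypes without overlap, and all 3 were at their lowest in RGd2 at N16h. In RGd2 cells in 2i, *Hes1* was at 482, 360 and 646, *Hey1* at 62.7, 52.7 and 52.5 and *Nrarp* at 51.1, 42.0 and 121. In all, 4 of 6 *Hes* and *Hey* genes were higher and 2 lower. *Hey2* was higher at low counts, from 8.87, 8.36 and 10.2 to 30.8, 39.6 and 50.6 (log2 fold change 2.13, adjusted p = 2.08e-04).

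The receptors *Notch3* (log2 fold change 0.96, standard error 0.14) and *Notch4* (1.51, standard error 0.14), the ligand *Jag1* (1.52, standard error 0.16) and the ubiquitin ligase *Dtx1* (1.05, standard error 0.13) were also higher (adjusted p = 1.06e-06, 3.46e-11, 8.89e-10 and 4.24e-08). *Notch4* stood at 498, 463 and 493 in RGd2 and at 1395, 1366 and 1369 in *Rbpj*-KO, with no overlap. The ligand *Dll1* changed the other way, from 930, 848 and 542 to 68.5, 95.7 and 126 (log2 fold change −3.02, standard error 0.21, adjusted p = 3.80e-14). *Hes3* also fell: its counts were 42.2, 35.5 and 19.4 in RGd2 and 0, 0 and 2.6 in *Rbpj*-KO, where each library had 3 reads or fewer, so the fold is a bound of at least 8.85-fold lower, taking 3 reads per library as the floor. Of 23 genes for NOTCH processing and modification, 7 were higher and 3 lower. Of 20 RBPJ cofactors, 5 were higher and 2 lower, the latter count including *Rbpj* itself (3 and 2 without RGd2 replicate 24). The medians of these lists were 0.23 and 0.18, close to the 0.15 of all expressed genes, of which 19.2% were higher and 3.96% lower. *Spen*, the corepressor that RBPJ binds directly, was at 2232, 2146 and 2326 in RGd2 and 4906, 4675 and 5654 in *Rbpj*-KO (log2 fold change 1.18, standard error 0.14, adjusted p = 2.80e-08), with every mutant library above every RGd2 library.

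The letters GTGGGAA, the core of the motif that RBPJ binds, and the variant CTGTGAA were searched on both strands of RefSeq promoters (GRCm38.p6, 250 bases before to 50 after each annotated start). GTGGGAA was in 6.38% of all 32851 promoters and CTGTGAA in 5.72%. By gene, GTGGGAA was in the promoter of 9.63% of 1922 genes called higher, 5.72% of 367 called lower and 7.1% of all 9873 expressed genes with a promoter in the table. CTGTGAA was in 4.84%, 5.99% and 4.3% of the same sets. These shares are descriptions without a test, and a match is not a bound site. The promoters of 4 genes that were higher in *Rbpj*-KO and hold a match are shown, chosen because they hold one, in lower case with the matches in capitals, written along the strand of the gene.
Hey2, chr10:30842734-30843033, minus strand: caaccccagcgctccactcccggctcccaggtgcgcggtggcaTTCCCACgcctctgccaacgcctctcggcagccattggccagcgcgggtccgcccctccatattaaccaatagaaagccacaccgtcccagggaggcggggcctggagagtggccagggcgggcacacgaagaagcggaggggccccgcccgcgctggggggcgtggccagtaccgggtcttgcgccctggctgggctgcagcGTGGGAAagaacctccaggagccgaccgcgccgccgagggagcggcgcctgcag
Krt8, chr15:102004293-102004592, minus strand: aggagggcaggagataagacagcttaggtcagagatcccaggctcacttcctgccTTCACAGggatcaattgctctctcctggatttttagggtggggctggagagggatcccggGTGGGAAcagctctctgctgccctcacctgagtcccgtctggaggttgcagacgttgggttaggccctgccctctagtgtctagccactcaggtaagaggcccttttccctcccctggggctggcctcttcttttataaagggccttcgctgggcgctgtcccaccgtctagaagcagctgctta
Spen, chr4:141538548-141538847, minus strand: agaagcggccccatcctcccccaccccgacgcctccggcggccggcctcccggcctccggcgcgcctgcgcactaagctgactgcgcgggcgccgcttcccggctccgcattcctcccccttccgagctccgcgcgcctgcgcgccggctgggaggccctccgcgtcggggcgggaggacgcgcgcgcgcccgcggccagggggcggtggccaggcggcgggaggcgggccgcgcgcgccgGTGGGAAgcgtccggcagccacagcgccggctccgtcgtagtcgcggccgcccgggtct
Nanog, chr6:122707239-122707538, plus strand: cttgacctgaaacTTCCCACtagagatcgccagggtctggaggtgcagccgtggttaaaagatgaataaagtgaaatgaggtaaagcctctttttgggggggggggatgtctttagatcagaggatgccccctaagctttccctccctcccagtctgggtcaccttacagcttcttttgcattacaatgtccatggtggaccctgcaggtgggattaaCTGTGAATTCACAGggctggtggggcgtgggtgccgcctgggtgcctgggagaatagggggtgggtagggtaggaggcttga
*Hey2* and *Spen* each hold GTGGGAA across or close to the annotated start, 4 and 9 bases before it by the first base of the match, and *Hey2* holds it once more on the other strand. In *Nanog* the variant lies next to its own reverse complement, so that the joined letters read the same on both strands. Another annotated *Nanog* promoter (chr6:122707315-122707614), not shown, holds this pair but not GTGGGAA.

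Naive pluripotency factors were higher in *Rbpj*-KO. Of 20 expressed naive factors, 12 were higher and 1 lower, beside 19.2% and 3.96% of all expressed genes. Their median log2 fold change was 0.54, against 0.15 for all expressed genes. *Nanog* had normalised counts of 4400, 4466 and 4567 in RGd2 and 12068, 11635 and 11364 in *Rbpj*-KO, and *Tbx3* had 709, 704 and 835 and 2158, 2158 and 2231, with no overlap for either gene. The log2 fold change was 1.38 (standard error 0.10) for *Nanog* and 1.54 (standard error 0.16) for *Tbx3* (adjusted p = 3.16e-13 and 6.84e-10). Both genes were nonetheless below their 2i level: RGd2 cells in 2i had 29105, 25360 and 20532 for *Nanog* and 4046, 3014 and 3626 for *Tbx3*, above every *Rbpj*-KO library at N16h. *Prdm14*, which encodes a repressor of differentiation and DNA methylation genes, went from 186, 196 and 147 to 431, 388 and 373 (log2 fold change 1.16, standard error 0.14, adjusted p = 1.58e-08). *Klf4* (log2 fold change 0.86), *Nr5a2* (0.68), *Tfcp2l1* (0.60) and *Esrrb* (0.53) were higher by smaller margins (adjusted p = 4.18e-06, 1.21e-05, 7.25e-04 and 4.08e-04). The member that was lower was *Dppa3*, a germline and early embryo gene, with 31.1, 24.0 and 26.6 in RGd2 and 5.95, 0 and 0 in *Rbpj*-KO (adjusted p = 5.14e-04). No fold is given for *Dppa3*, since its mutant counts came from 1 library, replicate 19. Among general pluripotency genes, 4 of 15 were higher and 1 lower, at a median of 0.14. This count was 2 and 3 with TMM normalization, 1 and 1 without RGd2 replicate 24 and 2 and 0 without *Rbpj*-KO replicate 21, so no direction is read from it.

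Formative genes were more often lower. Of 19 expressed, 9 were lower and 1 higher, at a median of −0.35 on the log2 scale. The shares over all expressed genes were 3.96% lower and 19.2% higher. With TMM normalization 13 were lower and 1 higher, where 1436 of the 13392 expressed genes were lower. Besides *Lef1* (log2 fold change −3.99), *Pou3f1* (−1.91) and *Dnmt3b* (−1.18), the epithelial transcription factor *Grhl2* fell from 2633, 2419 and 2280 to 683, 668 and 779 (log2 fold change −1.78, standard error 0.16, adjusted p = 2.74e-11). *Otx2*, a regulator of the formative state, had 2432, 2363 and 2030 in RGd2 and 1590, 1444 and 1693 in *Rbpj*-KO (log2 fold change −0.53, standard error 0.12, adjusted p = 7.60e-04). The groups did not overlap for either gene. *Grhl2* nonetheless stood in *Rbpj*-KO well above its 2i level of 48.4, 25.1 and 40.3, and *Otx2* above its 2i level of 640, 571 and 751. For *Otx2* the difference in effect, N16h minus 2i, was −1.40 on the log2 scale. Its fitted level in 2i was thus higher in *Rbpj*-KO than in RGd2, the reverse of N16h. *Etv4*, an ETS factor downstream of FGF and ERK, was the member that was higher (2545, 2223 and 3017 against 5637, 5624 and 6147, log2 fold change 1.16, standard error 0.12, adjusted p = 4.40e-10). *Fgf5* was lower (log2 fold change −1.16, adjusted p = 0.00425), but *Rbpj*-KO replicate 21 overlapped the clonal RGd2 replicate 24 (104 and 103), and without *Rbpj*-KO replicate 19 the adjusted p was 0.0581. Against the clonal RGd2 library alone, 1 formative gene was higher and 4 lower, and neither *Otx2* (log2 fold change −0.37, adjusted p = 0.197) nor *Fgf5* (−0.54, adjusted p = 0.496) passed.

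**Figure D2:**
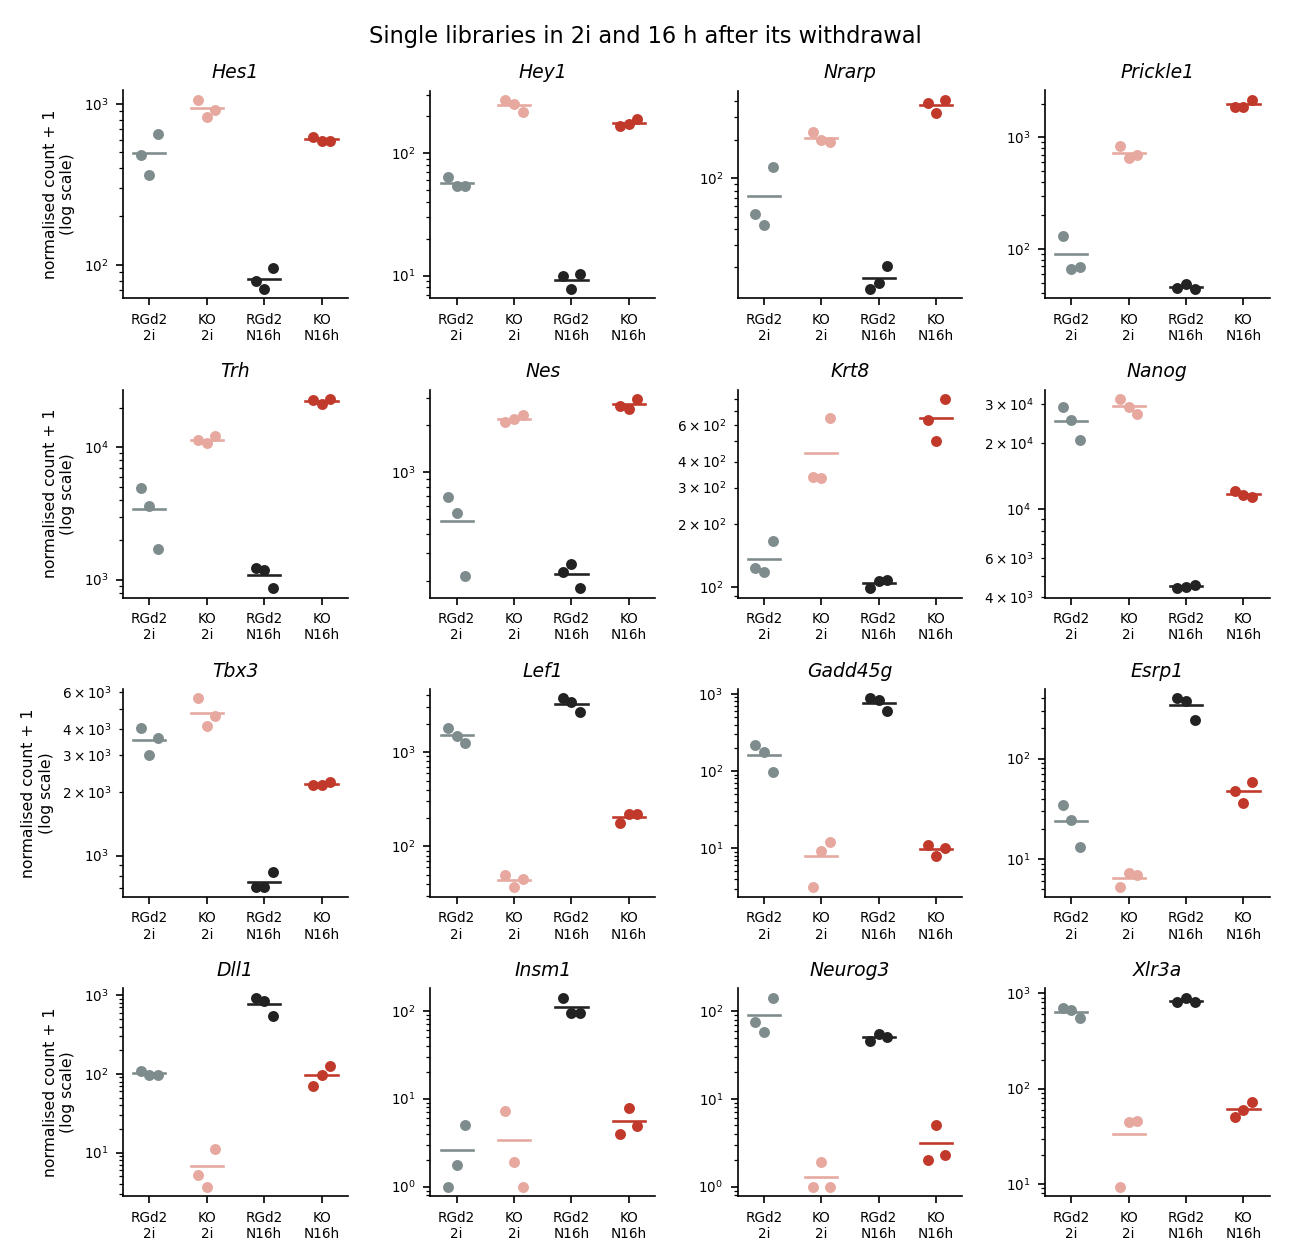
Normalised counts plus 1 on a log axis for 16 genes, 1 point per library and a bar at the group mean, for RGd2 and *Rbpj*-KO in 2i and at N16h. *Hes1*, *Hey1* and *Nrarp* are lowest in RGd2 at N16h and stay high in *Rbpj*-KO, *Nanog* and *Tbx3* in *Rbpj*-KO lie between their 2i and RGd2 N16h levels, and *Insm1* is near 0 except in RGd2 at N16h.

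Signalling genes did not move as a block. The counts below stand beside shares of 19.2% higher and 3.96% lower over all expressed genes. Of 15 expressed BMP pathway and *Id* genes, 9 were higher and 0 lower, with 6 higher and 1 lower when *Rbpj*-KO replicate 21 was left out. The *Id* genes, which encode inhibitors of basic helix-loop-helix factors, led this list: *Id4* (log2 fold change 2.85, adjusted p = 1.63e-11), *Id1* (2.65, adjusted p = 3.62e-10) and *Id3* (1.76, adjusted p = 9.20e-12). Among ERK feedback and early response genes 7 of 23 were higher and 2 lower. The phosphatase genes *Dusp14* and *Dusp4* went in opposite directions, *Dusp14* from 73.2, 91.4 and 94.1 to 430, 415 and 389 (log2 fold change 2.26, adjusted p = 1.66e-12) and *Dusp4* from 1420, 1281 and 1312 to 651, 683 and 640 (−1.02, adjusted p = 1.98e-06). Both genes separated the genotypes without overlap. Of 13 FGF ligands and receptors 2 were higher and 3 lower, and of 19 LIF and STAT3 pathway genes 6 were higher and 2 lower (3 and 2 without *Rbpj*-KO replicate 21). Among 13 WNT and β-catenin targets, 2 were higher and 3 lower, 2 and 7 with TMM normalization, and 2 and 5 without RGd2 replicate 24. Of these, *Cdx1* was higher (15.5, 9.92 and 16.4 against 99.2, 47.8 and 105, log2 fold change 2.66, adjusted p = 6.42e-09), at levels far below the 1065, 908 and 1252 of RGd2 in 2i. Nodal and activin genes had 6 of 17 higher and 3 lower.

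Cytoskeletal and adhesion genes were mixed, with keratins up and an epithelial splicing factor down. *Krt8*, which encodes the simple epithelial keratin 8 and whose promoter is shown above, had 97.6, 106 and 106 in RGd2 and 634, 500 and 796 in *Rbpj*-KO (log2 fold change 2.64, standard error 0.20, adjusted p = 5.77e-13). Its partner *Krt18* was also higher (log2 fold change 1.20, adjusted p = 3.08e-05). In contrast, *Esrp1*, which encodes an epithelial splicing regulator, fell from 397, 371 and 245 to 46.6, 35.5 and 57.1 (log2 fold change −2.86, standard error 0.23, adjusted p = 1.71e-12), and the adhesion molecule *Epcam* from 2901, 2997 and 2381 to 1384, 1271 and 1529 (log2 fold change −0.99, standard error 0.16, adjusted p = 7.60e-06). None of these genes overlapped between genotypes. In the whole list of simple epithelial genes, 5 of 19 were higher and 2 lower, at a median of 0.13, close to that of all expressed genes. Of 29 focal adhesion and actin genes 9 were higher and 4 lower, and 8 and 7 with TMM normalization. The shares over all expressed genes were 19.2% higher and 3.96% lower with the spike-ins. The calcium-binding *S100a6* was higher (log2 fold change 2.09, adjusted p = 5.31e-05), and the myosin light chain *Myl9* lower (−2.53, adjusted p = 4.01e-06). The clonal RGd2 library lay toward *Rbpj*-KO for both: *S100a6* was at 2.86 without it, and against it alone *S100a6* (1.06, adjusted p = 0.173) and *Myl9* (−1.62, adjusted p = 0.0501) did not pass. Axon guidance and planar polarity genes had 12 of 27 higher and 2 lower, led by *Prickle1* and *Nrp2*.

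Of 9 expressed neural markers 7 were higher and 0 lower (4 and 1 without RGd2 replicate 24), beside 19.2% and 3.96% of expressed genes. The summed normalised count of the list was 6267 to 6529 in *Rbpj*-KO and 1995 to 2636 in RGd2. *Pax3*, *Neurog1*, *Neurog2* and *Olig2* had no count in *Rbpj*-KO. The increase came mainly from *Nes*, which encodes the intermediate filament nestin (226, 256 and 178 against 2675, 2559 and 2940, log2 fold change 3.62, standard error 0.19, adjusted p = 5.96e-18), with *Vax2* (4.36, adjusted p = 1.68e-13) and *Sox21* (2.22, adjusted p = 3.81e-10). Without RGd2 replicate 24, 4 of the 9 markers were higher and 1 lower. Outside this list, the endocrine and proneural transcription factor genes *Insm1* and *Neurog3* were lower. *Insm1* had 140, 93.5 and 93.1 in RGd2 and 2.98, 6.83 and 3.89 in *Rbpj*-KO (log2 fold change −4.59, standard error 0.50, adjusted p = 2.81e-09). *Neurog3*, named after its values were seen, had 45.1, 54.3 and 49.1 and 0.992, 4.1 and 1.3 (log2 fold change −4.55, standard error 0.56, adjusted p = 4.23e-08), and was at −5.33 without *Rbpj*-KO replicate 20. Neither gene overlapped between the genotypes, and *Insm1* was at or near 0 in 2i in both.

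Basement membrane genes were higher, but by different amounts in the 3 *Rbpj*-KO lines. Of 17 expressed, 14 were higher and 0 lower, with a median of 0.72, beside 19.2% higher and 3.96% lower over all expressed genes. *Col4a1*, which encodes a type IV collagen chain, had 354, 335 and 1358 in RGd2 and 1882, 2409 and 10340 in *Rbpj*-KO (log2 fold change 2.86, standard error 0.56, adjusted p = 2.04e-04). *Lama1*, a laminin chain gene, had 254, 234 and 1119 and 1223, 1407 and 7212 (log2 fold change 2.64, adjusted p = 7.24e-05). The highest RGd2 value of both genes was that of the clonal replicate 24, and the highest *Rbpj*-KO value that of replicate 21. Without replicate 24 the log2 fold changes were 3.82 for *Col4a1* and 3.75 for *Lama1*, and without replicate 21 they were 1.67 and 1.32 (adjusted p = 0.0265 and 0.0275). Against the clonal RGd2 library as the only control, with its spread taken from the other groups, neither passed (adjusted p = 0.143 for *Col4a1* and 0.116 for *Lama1*). With replicates 24 and 21 both left out, 7 of the 17 genes were higher and 0 lower. *Lama4* did not depend on these libraries in the same way, with 11.8, 17.8 and 15.3 in RGd2 and 144, 200 and 192 in *Rbpj*-KO (log2 fold change 3.55, adjusted p = 3.41e-10). Integrins had 9 of 15 higher and 0 lower, and 4 and 0 without both replicates.

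Some markers of primitive endoderm, the extraembryonic lineage that deposits basement membrane, moved with these genes, mainly in *Rbpj*-KO replicate 21. Of 10 expressed markers 6 were higher and 0 lower, at a median of 2.05, beside 19.2% and 3.96% of all expressed genes. When *Rbpj*-KO replicate 21 was left out, only 1 of them was higher and 0 lower, at a median of 0.34. With TMM normalization 4 were higher and 1 lower. *Pdgfra* had 18.5, 20.9 and 40.9 in RGd2 and 23.8, 31.4 and 327 in *Rbpj*-KO, *Dab2* 28.8, 21.4 and 94.1 and 49.6, 64.2 and 523, and *Gata4* 17.7, 21.9 and 27.6 and 34.7, 28.7 and 191. Replicate 21 was several-fold above the other *Rbpj*-KO lines for each. Without it the log2 fold changes were 0.08 for *Pdgfra*, 0.32 for *Dab2* and 0.52 for *Gata4* (adjusted p = 0.972, 0.806 and 0.738). *Cubn*, which encodes the endocytic receptor cubilin, showed the same order with the clonal RGd2 library also raised (14.1, 16.7 and 195 against 117, 268 and 1552). Its log2 fold change was 3.24, but 1.47 without replicate 21 (adjusted p = 0.254), 5.36 without replicate 24, and 1.72 against the clonal library alone (adjusted p = 0.328). The summed list overlapped between the groups, from 6222 to 10352 in *Rbpj*-KO and 7425 to 9736 in RGd2, with *Ttr* at 0 in both and *Afp* at 0 in *Rbpj*-KO. The sums of *Rbpj*-KO replicates 19 and 20 (6222 and 7192) were below every RGd2 sum. Some members not named here were thus lower in those lines, against the direction of the named ones. The part of these cells in the basement membrane result was not tested. Of the other marker lists, 4 of 6 trophoblast, 3 of 6 fibroblast and 1 of 2 mesendoderm markers were higher and none lower. The trophoblast sum was 2448 to 2630 in *Rbpj*-KO and 1111 to 1262 in RGd2, with *Prl3d1* and *Prl8a9* at 0 in every N16h library, and the fibroblast sum 22612 to 24924 and 11167 to 13807, with *Col3a1*, *Lum* and *Postn* at 0 in *Rbpj*-KO and *Lum* at 0 in RGd2. The mesendoderm sum was 383 to 532 in *Rbpj*-KO and 229 to 344 in RGd2, where *Lhx1* and *Cer1* were at 0. The part of such cells in other results was not tested.

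Expressed genes of the 2-cell-like state, a rare state in ESC cultures marked by *Zscan4*, were lower, and here too the clonal RGd2 library stood apart. All 7 expressed members were lower, and all but *Usp17lc* were *Zscan4* copies. Members near absent in *Rbpj*-KO reached the expression minimum through RGd2, so this count follows in large part from that filter. No weight is put on it for that reason. The median log2 fold change of the 7 was −4.90, or −4.71 with genes at the floor set to their bound. *Zscan4c* had normalised counts of 413, 396 and 58.3 in RGd2 and 3.97, 9.57 and 16.9 in *Rbpj*-KO, and the summed list was 2070 and 1932 in the parental RGd2 libraries, 238 in the clonal one and 24.8 to 79.2 in *Rbpj*-KO. The clonal library lay between the others. Without it the 7 genes were still lower, and against it alone 3 of the 7 were. *Usp17lb* had no count in *Rbpj*-KO and 85.8, 84.1 and 4.09 in RGd2, at least 15.9-fold lower, and *Zscan4e* was at least 26.8-fold lower. These families have many near-identical copies, and counting of unique matches could divide their reads unevenly, so the values of single copies are uncertain. *Cdkn1c*, an imprinted gene for a CDK inhibitor, had the same order (1299, 1077 and 109 against 57.5, 61.5 and 58.4). It was lower (log2 fold change −3.82, adjusted p = 8.38e-05), but against the clonal library alone the adjusted p was 0.612.

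The X-linked *Xlr* genes were different in this respect. *Xlr3a* had 807, 897 and 802 in RGd2, where the clonal library matched the parental ones, and 49.6, 58.8 and 71.4 in *Rbpj*-KO (log2 fold change −3.81, standard error 0.44, adjusted p = 1.08e-08). *Xlr4a* had 86.5, 137 and 78.8 in RGd2 and 3 reads or fewer in each *Rbpj*-KO library, at least 27.5-fold lower, and *Xlr5a* was at least 11.3-fold lower. The family was already low in *Rbpj*-KO in 2i (*Xlr3a* at 8.42, 43.9 and 45.4, against 706, 673 and 545 in RGd2). *Xlr* genes are also a repeated family, with the same uncertainty for single copies.

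**Figure D3:**
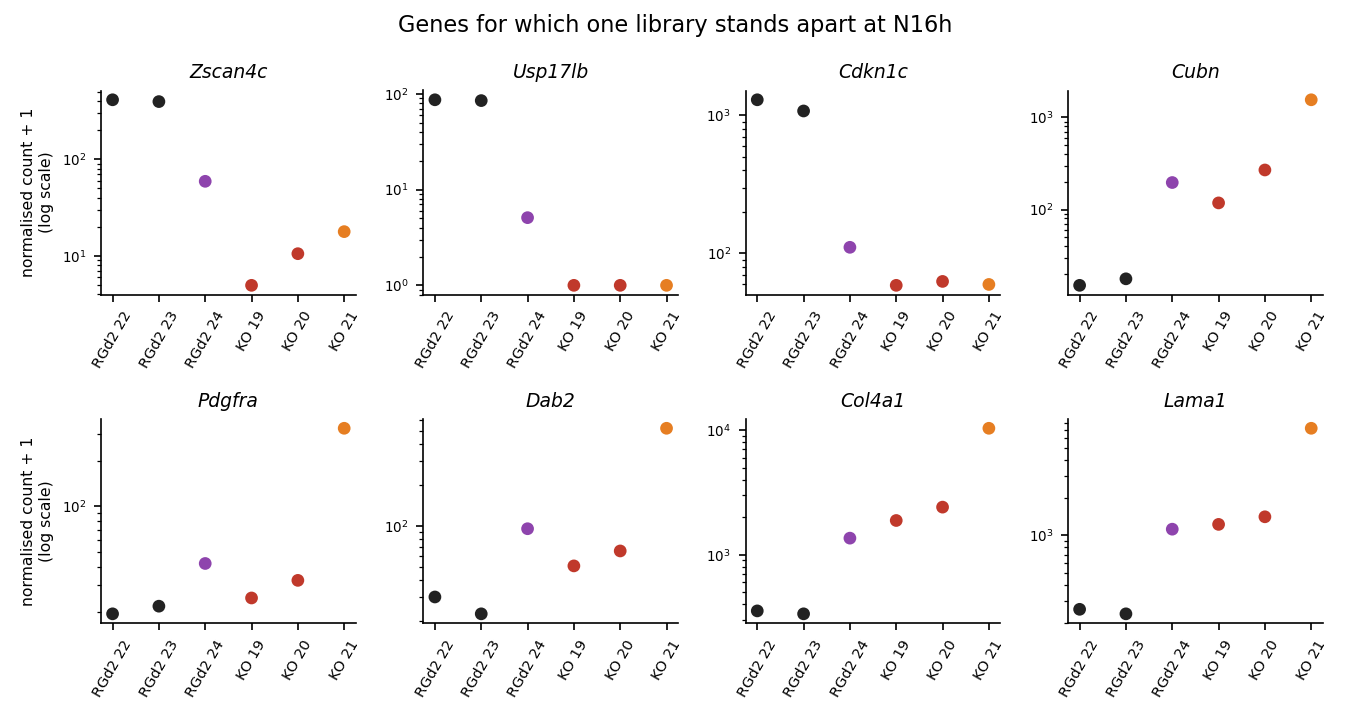
Normalised counts plus 1 on a log axis at N16h for 8 genes, 1 point per library: RGd2 replicates 22 and 23 (black), the clonal RGd2 replicate 24 (purple), *Rbpj*-KO replicates 19 and 20 (red) and 21 (orange). Replicate 24 lies toward *Rbpj*-KO for *Zscan4c*, *Usp17lb* and *Cdkn1c*, and replicate 21 is the highest library for *Cubn*, *Pdgfra*, *Dab2*, *Col4a1* and *Lama1*.

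Over all calls, the clonal RGd2 library was nearer to the *Rbpj*-KO mean than to the parental RGd2 mean for 146 of the 530 lower genes (27.6%) and for 79 of the 2570 higher genes (3.07%), on the log2(normalised count + 1) scale. Without replicate 24, 1829 of the higher and 485 of the lower genes were called again, and without *Rbpj*-KO replicate 21, 1702 and 411 were. With both left out, 1345 and 420 were called again.

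Few members of the housekeeping groups passed the test. Of 85 cytosolic ribosomal protein genes 2 were higher and 1 lower, of 76 nuclear respiratory chain genes 4 and 0, of 59 replication-dependent histone genes 4 and 1, and of 28 Polycomb and chromatin regulators 2 and 1. Each share was below the background of 19.2% for higher and 3.96% for lower genes. With TMM normalization the lower counts of these lists were 8, 5, 1 and 5, where 1436 of the 13392 expressed genes were lower. Glycolysis genes had 5 of 24 higher and 3 lower, but 5 and 11 with TMM normalization, and cholesterol synthesis genes 2 of 24 higher and 1 lower. DNA methylation enzymes, listed together with related genes such as *Gadd45* genes and *Mbd2*, had 5 of 19 higher and 3 lower. Germ cell genes had 3 of 23 higher and 3 lower, imprinted genes 7 of 25 and 3, and cyclins and CDK inhibitors 4 of 26 and 3. With TMM normalization the imprinted genes had 3 higher and 5 lower and the cyclins and CDK inhibitors 1 and 6, so their balance turned. Cadherins had 1 of 7 higher and 2 lower, mitochondrial messenger RNAs 2 of 9 and 0, and *Hox* genes 1 of 4 and 0. Larger shares were higher among 37 lysosome genes (12 higher, 1 lower), 22 amino acid and stress response genes (10 and 0), 15 YAP/TEAD targets (7 and 1) and 19 p53 targets (6 and 1). Among the p53 targets, *Perp*, which encodes a desmosome-associated membrane protein, went from 56.9, 46.0 and 70.6 to 238, 269 and 280 (log2 fold change 2.21, adjusted p = 2.76e-11), and the BH3-only gene *Pmaip1* from 162, 166 and 247 to 694, 741 and 961 (2.08, adjusted p = 5.75e-13). These shares rested in part on *Rbpj*-KO replicate 21: without it the counts were 5 and 0 for lysosome genes, 5 and 0 for stress response genes, 4 and 2 for YAP/TEAD targets and 4 and 0 for p53 targets. Without RGd2 replicate 24 they were 6 and 1, 8 and 0, 6 and 1 and 6 and 1. With TMM normalization lysosome genes had 7 higher and 2 lower and YAP/TEAD targets 5 and 3.

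**Figure D4:**
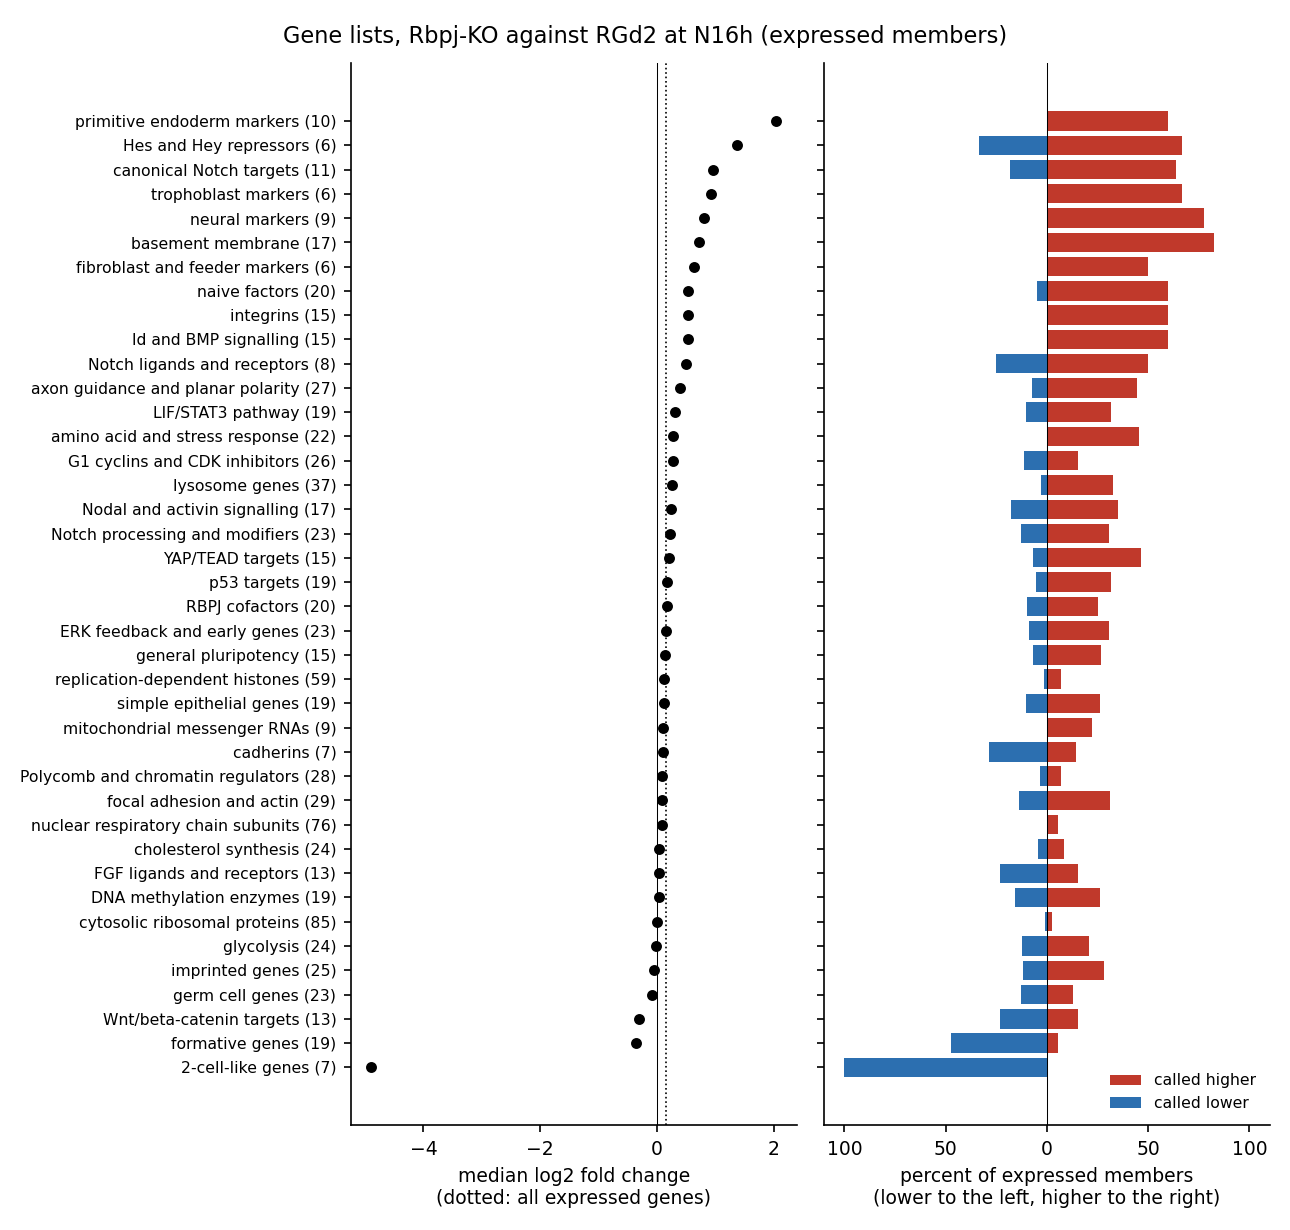
Median log2 fold change of the expressed members of each gene list with at least 6 of them (left, with the number of expressed members in brackets) and the percent of those members called higher (red, to the right) or lower (blue, to the left). The 2-cell-like genes, mostly *Zscan4* copies, stand at −4.90, formative genes at −0.35 and naive factors at 0.54. Primitive endoderm markers stand at 2.05, or at 0.34 without *Rbpj*-KO replicate 21. The dotted line is the 0.15 of all expressed genes.

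To relate these changes to exit in RGd2, genes were classed by their change in RGd2 between 2i passage 5 and N72h. The paper states that its lines were routinely kept with a GSK3 inhibitor and LIF, and moved to 2i shortly before the assay. The passage 5 cells had instead been passaged in 2i. A difference in culture history may thus be part of these classes, and its share was not tested. These libraries were not among the 6 compared at N16h, though they share in the estimate of spread. From 2i passage 5 to N72h, 9.38% of 13929 expressed genes fell and 18.8% rose. Both classes needed a change of more than 1 on the log2 scale and an adjusted p under 0.05. The cell lines are shared, so the clonal RGd2 line is in both comparisons. Of 1155 genes that fell over exit and were expressed at N16h, 466 (40.3%) were higher in *Rbpj*-KO and 124 (10.7%) lower. Of 1905 that rose, 465 (24.4%) were higher and 169 (8.87%) lower. Among the other 10332 expressed genes 15.9% were higher and 2.29% lower. The genes that fell over exit had the largest share of higher calls of the 3 classes and also the largest share of lower calls, as a description without a test. With TMM normalization the 4 counts over the same classes were 408, 180, 393 and 275.

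*Ackr4*, *Xaf1*, *Hey1*, *Trh* and *Vax2* were the largest increases among genes that fell over exit, and *Prickle1*, *Slc13a5*, *Nrarp*, *Nes* and *Cubn* among those that rose, of which *Cubn* was not called without *Rbpj*-KO replicate 21. Exit in RGd2 lowered *Trh* by 2.10 and raised *Prickle1* by 3.15 on the log2 scale. By fitted fold change, the largest decreases among genes that fell were members of repeated families or predicted genes (*Usp17lb*, *Gm21293*, *Zscan4e*, *Zscan4a* and *Gm2016*). Among genes that rose, the largest decreases were *Gadd45g*, *Xlr4a*, *Adamts1*, *Insm1* and *Xlr3a*. *Adamts1*, which encodes an extracellular protease, had 28.8, 29.8 and 23.5 in RGd2 and 3 reads or fewer in each *Rbpj*-KO library, at least 7.49-fold lower.

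**Figure D5:**
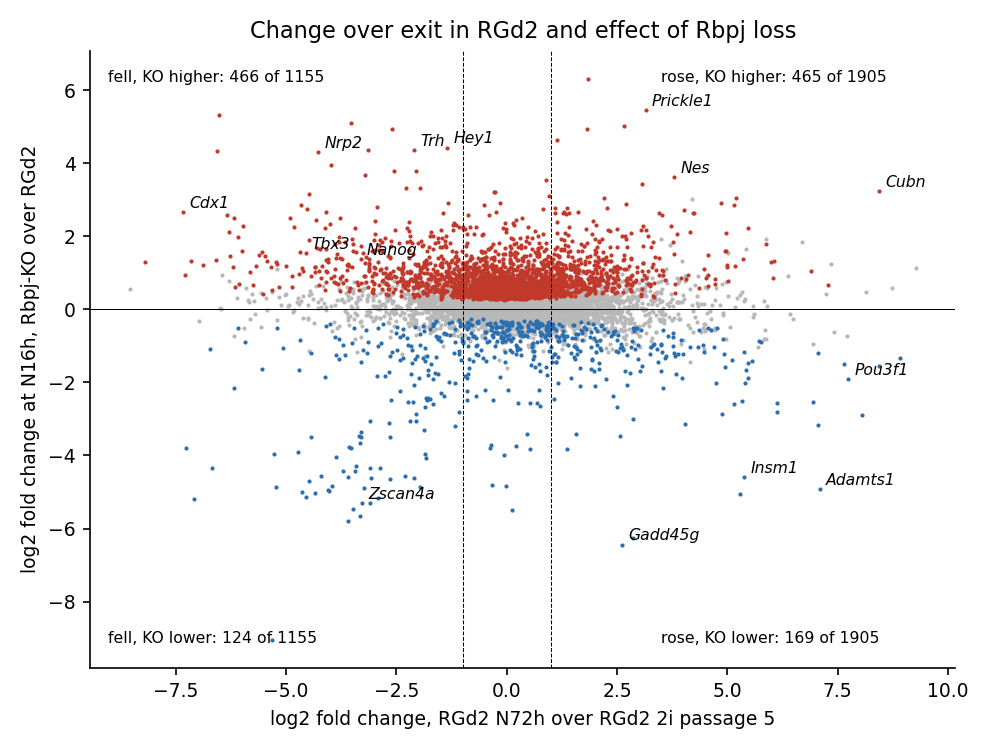
Log2 fold change of *Rbpj*-KO over RGd2 at N16h (vertical axis) against the log2 fold change of RGd2 between 2i passage 5 and N72h (horizontal axis), 1 point per expressed gene, red called higher and blue called lower. Dashed lines mark a change of 1 on the log2 scale over exit, and the corner counts are 466 and 124 of 1155 genes that fell and 465 and 169 of 1905 that rose.

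Whether the effect of RBPJ loss differed from that in 2i was tested as the difference between the effects. In 2i, 5.44% of 13216 expressed genes were higher in *Rbpj*-KO and 7.05% lower. Of the genes called at N16h, 581 higher and 343 lower genes were called the same way in 2i, and 23 the opposite way. For 513 genes (3.83%) the effect was higher at N16h than in 2i and for 31 (0.231%) it was lower, and the counts with TMM normalization were 340 and 150. The count of 513 became 1558 without RGd2 2i replicate 33, the library with the fewest counts (5986857), and 228 without RGd2 2i replicate 31, and it was between these values without any other library.

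The genes whose effect rose most were *Ackr4*, *Adamtsl1*, *Apln*, *Ntrk3* and *Gm30015*. *Apln*, which encodes the peptide ligand apelin, had 145, 124 and 84.8 in RGd2 and 112, 99.4 and 86.6 in *Rbpj*-KO in 2i. At N16h it had 15.5, 20.4 and 16.4 and 132, 141 and 113, a difference in effect of 3.18 (standard error 0.38, adjusted p = 3.50e-07). The RGd2 level dropped on withdrawal of 2i, and the *Rbpj*-KO level did not. *Ntrk3*, a neurotrophin receptor gene, was lower in *Rbpj*-KO in 2i (log2 fold change −1.13, adjusted p = 0.0246) and higher at N16h (2.01, adjusted p = 2.25e-04). The largest effects in the opposite direction were those of *Insm1*, *Spry4*, *Gm525*, *Tiam2* and *Nudc-ps1*. *Spry4*, which encodes an ERK pathway inhibitor, was higher in *Rbpj*-KO in both conditions, with 8.06, 9.17 and 16.2 in RGd2 and 96.8, 76.1 and 78.2 in *Rbpj*-KO in 2i and 2144, 1955 and 2301 and 3254, 3096 and 3767 at N16h, a difference in effect of −2.44 (standard error 0.31, adjusted p = 8.16e-07). *Tiam2*, a RAC exchange factor gene, was higher in 2i (log2 fold change 1.66, adjusted p = 6.12e-06) and at N16h had 66.6, 53.8 and 29.7 in RGd2 and 34.7, 34.2 and 41.5 in *Rbpj*-KO (−0.47, adjusted p = 0.23).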

How the data were processed

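Total RNA from RGd2 and *Rbpj*-KO ESCs was depleted of ribosomal RNA and sequenced as directional libraries with added spike-in RNAs. Per the labels, the authors used Trim Galore for trimming, TopHat2 for alignment to mm10 and featureCounts for counting per gene. The deposited values are raw counts for 51826 genes and 92 spike-ins, of which 52 were above 0 in every library. Removal of duplicate molecules is not given in the sources used here. From the counts, a normalised count was computed as the count divided by a size factor from the spike-ins (median of ratios), as were CPM and FPKM levels and log2 fold changes.

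Genes were tested with edgeR 4.0.16 in R 4.3.3 (quasi-likelihood test, two-sided, 19037 genes after a filter on low counts, Benjamini-Hochberg adjustment, threshold 0.05), in 1 fit over all 32 libraries with a coefficient per group. Expressed genes had a mean of at least 1 CPM in either group. DESeq2 1.42.0, TMM and other alternatives were run, and the steps were tested on simulated data. Symbols were matched by gene ID, and 193 IDs without a symbol held 0.0259% of counts. The 3 libraries of a group came from separate lines or, for parental RGd2, from 1 line. The p-values measure the spread between cultures within groups, as estimated over all 32 libraries and not over the compared ones alone.

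Named genes were *Rbpj*, the 10 largest changes in each direction without overlap and with at least 10 counts in some library, up to 4 called members of each of 42 gene lists and its first 3 symbols, the 5 largest changes in each exit class, and the 5 largest differences from 2i in each direction. Other genes named for their values (*Neurog3*, *Esrrb*, *Tfcp2l1*, *Nr5a2*, *Otx2* and *Cdkn1c*, where outside this rule) were chosen after those values were seen. The members and lists were chosen with earlier results of these data known. Intervals and floors, set at 3 counts, cover counting error only. For the difference from 2i, libraries pair by cell line, from the labels: deviations from the group mean correlated at 0.098, 0.072 and 0.252 for *Rbpj*-KO lines c28, c33 and c36, at 0.315 for the clonal RGd2 line, and at 0.157 to 0.282 for parental RGd2.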

Additional observations from a re-analysis of the deposited data

Results flagged for a closer look

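The effect of RBPJ loss at N16h differed from that in 2i for 513 genes whose effect was higher and 31 whose effect was lower, by a test of the difference itself (edgeR's quasi-likelihood test, p adjusted by Benjamini and Hochberg). Among the genes named above, those that passed this test are given here with the difference in effect on the log2 scale, N16h minus 2i. For NOTCH pathway genes it was 1.95 for *Hes1*, 2.31 for *Hey1*, 2.83 for *Nrarp*, 0.87 for *Dtx1*, 1.63 for *Notch4* and 0.82 for *Jag1*. For naive factors it was 1.16 for *Nanog*, 1.12 for *Tbx3*, 0.68 for *Esrrb*, 0.58 for *Nr5a2* and 1.34 for *Prdm14*, so that the gap between the genotypes was wider after withdrawal of 2i than before it. For signalling genes and targets it was 2.39 for *Id1*, 2.06 for *Id4*, 1.36 for *Dusp14*, 2.90 for *Cdx1* and 1.18 for *Lef1*, and *Lef1* was lower in *Rbpj*-KO in both conditions. For the remaining genes with a higher effect it was 1.52 for *Nes*, 2.48 for *Prickle1*, 1.91 for *Nrp2*, 2.63 for *Trh*, 3.63 for *Ackr4*, 3.18 for *Apln*, 3.14 for *Ntrk3*, 3.21 for *Adamtsl1*, 3.11 for *Gm30015* and 2.81 for *1700016D06Rik*. A lower effect was seen at −1.40 for *Otx2*, −1.05 for *Etv4*, −2.44 for *Spry4*, −5.46 for *Insm1*, −2.13 for *Tiam2*, −2.20 for *Gm525* and −2.02 for *Nudc-ps1*. *Etv4* and *Spry4*, which respond to ERK signalling, were higher in *Rbpj*-KO at N16h in spite of the lower effect. The libraries in 2i and at N16h came from the same lines.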

How the results depend on the processing

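The direction of *Rbpj* and its side of the threshold were the same under every alternative run. Without a given N16h library, 1724 to 2222 genes were higher and 379 to 558 lower, and 1 called gene changed sign. The lower count was 1436 with TMM and 1551 with median-of-ratios factors on gene counts, and the higher count was 1542 with a fold change of at least 1.5. With the spread taken from the libraries compared alone, 3787 genes were higher and 726 lower. Alternatives chosen after seeing the data gave 1281 higher and 138 lower genes against the clonal RGd2 library alone, and 1362 higher with both libraries that stood apart left out. The cause was not tested. For the difference from 2i, the higher count was 340 with TMM and 234 with the libraries compared alone, and the lower count 150 with TMM, 149 with median-of-ratios factors, 17 with the libraries compared alone and 47 with no low-count filter. Leaving out 1 library gave 228 to 1558 and 17 to 53. With the cell line as a replicate block the counts were 523 and 37, of which 488 of the higher genes were shared, and no paired analysis was possible because the genotypes share no line for the comparison at N16h itself. Genes that fell over exit and were lower numbered 209 with TMM in both comparisons, 202 with median-of-ratios factors and 36 against the clonal library. Those that rose and were lower numbered 266 with median-of-ratios factors, 107 at a mean of at least 1 FPKM and 54 against the clonal library. Those that rose and were higher numbered 244 against it and 268 with both libraries left out. Without 1 library the 4 exit counts were 399 to 478 and 97 to 133 for genes that fell (higher, lower), and 326 to 499 and 117 to 186 for genes that rose. Of 81 named genes, none reversed, and at most 5 lost their call in any alternative but the clonal control, where 19 did.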
